A study of Mus musculus with 3 samples.

Results

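The nuclear-encoded genes of the respiratory chain were examined on 3 arrays of long-term hematopoietic stem cells (LT-HSCs). These bone marrow cells sustain blood formation for life. They were taken by name from the array annotation as the genes beginning with Nduf, Uqcr, Cox4, Cox5, Cox6, Cox7, Cox8 or Atp5, together with Sdha, Sdhb, Sdhc and Sdhd, and without names marked as pseudogenes by ps after a hyphen. This gave 91 of 37072 genes on the array, covered by 142 of 56605 probes, and 1 pseudogene name (Atp5c1-ps) was left out. By complex, 45 genes belonged to complex I, 4 to complex II, 8 to complex III, 17 to complex IV and 17 to complex V, the ATP synthase. Of the 91 genes, 52 had 1 probe, and each of the other 39 was represented by its brightest probe over the 3 arrays.

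The respiratory chain lies in the inner mitochondrial membrane. Complex I (NADH dehydrogenase) and complex II (succinate dehydrogenase) take electrons from nutrients and pass them through ubiquinone to complex III, from where cytochrome c carries them to complex IV, which reduces oxygen. Complexes I, III and IV pump protons, and ATP synthase uses the resulting gradient to make ATP. Most subunits are encoded in the nucleus, the rest in mitochondrial DNA, and dedicated assembly factors join them. LT-HSCs are known to rely largely on glycolysis at rest and to raise mitochondrial respiration when they enter the cell cycle. Atm, the kinase that signals DNA double-strand breaks, and p38α, the stress-activated kinase encoded by Mapk14, are both known for links to reactive oxygen species in these cells.

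Each array held RNA of 1 genotype, so the 3 groups had 1 array each and no replicate. All cells were bone marrow LT-HSCs of C57BL/6J mice, 11 weeks old by the labels, sorted as CD150+CD48-Flt3-CD34- LSK, where LSK stands for cells without lineage markers that carry Sca-1 and c-Kit, whereas the series text names a gate on CD34 and Flt3 and the methods further add CD41. AtmsKO cells came from mice with floxed Atm and Atmp38dKO cells from mice with floxed Atm and floxed p38α, both with CAG-CreERT2, a tamoxifen-activated Cre under a promoter active in nearly all tissues, so deletion was not limited to blood cells. By the series text tamoxifen was given at about 5 weeks of age with analysis 4 weeks later. Per the methods, WT controls received tamoxifen without carrying Cre, animals of both sexes were used, and the number of mice behind an array was not stated. No spread between mice could be measured and no p-value was computed, so every difference below compares these arrays and not the genotypes.

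The deletions were checked first. Atm gave 88.8 intensity units on the WT array, 16.3 on AtmsKO and 49.0 on the array labelled Atmp38dKO at 1 probe, and 87.0, 23.9 and 86.5 at the other. Mapk14 gave 295, 260 and 345 at 1 probe and 469, 558 and 616 at the other. Atm was therefore low on AtmsKO at both probes, whereas the array labelled Atmp38dKO showed no loss of Mapk14 signal and at most a partial loss of Atm. Whether these probes lie in the deleted exons was not given in the sources used here, and directions drawn from that array carry this doubt. All 10 LT-HSC marker genes were well above background on each array, as were Cd48, Flt3, Cd34 and Itga2b, whose proteins the gates exclude. Of the markers of other blood cells, 8 or 9 of 9 erythroid, 12 of 12 granulocyte and monocyte, 6 to 8 of 8 B cell, 5 of 6 T cell, 5 of 5 megakaryocyte and 3 of 5 mast cell and basophil genes were well above background. The median normalized log2 signal of the LT-HSC markers was 1.95 on WT, 1.87 on AtmsKO and 1.52 on the array labelled Atmp38dKO, where Fgd5 (198, 146 and 69.8 intensity units) and Hoxb5 (91.4, 107 and 34.0) were lowest. Summed marker signal, not scaled between arrays, ranged from 427 on WT to 887 on the array labelled Atmp38dKO for erythroid genes. For megakaryocyte genes it ranged from 1942 on WT to 3306 on AtmsKO. In the same order of arrays, Hbb-bt gave 137, 331 and 460 and Pf4 gave 1020, 2366 and 1536. Not all genes of these lists followed, since Hba-a1, Epor, Gp1bb and Gp9 gave lower unscaled signals on AtmsKO than on WT. Median normalized log2 signals were -1.92, -1.87 and -1.39 for erythroid and 1.80, 1.79 and 1.80 for megakaryocyte genes. The part of such cells in the results was not tested. In such bulk RNA fewer cells of a type and less RNA per cell cannot be told apart.

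Respiratory chain genes were almost all detected in LT-HSCs. Of 91 genes, 90 were well above background on WT, 88 on AtmsKO and 89 on the array labelled Atmp38dKO (98.9%, 96.7% and 97.8%), against 75.5%, 71.3% and 79.7% of all genes. Detection here follows the scanner software's flag, required of more than 50% of a probe's spots. No respiratory chain probe was saturated. Of the 91 genes, 81 were among the 10882 bright genes, those whose mean log2 signal was at or above the 75th percentile to which each array was scaled. Their differences are therefore set beside those of all bright genes as well as of all genes. Signals below are in intensity units as read from WT, AtmsKO and the array labelled Atmp38dKO, in that order, and log2 differences are taken after scaling by that percentile, which was 102, 96.2 and 118 units, so equal signals on these arrays are not equal normalized levels. Precision within an array was gauged from repeats, since Atp5g2, 1 of 3 genes for the same c-ring protein of ATP synthase, was printed 10 times. Its spots gave 3132 ± 184 on WT, 3118 ± 244 on AtmsKO and 3419 ± 221 on the array labelled Atmp38dKO (SD between spots of an array, n = 10). On the normalized log2 scale these spots had SDs of 0.09, 0.11 and 0.09.

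The used probes were compared in sequence with other probes of the array but not with transcripts, so their specificity was not tested. Of the 91 probes, 86 shared no stretch of 20 bases with a probe of another name, and 5 (those of Atp5h, Cox6a1, Cox6c, Ndufb11 and Uqcr10) shared such a stretch with 1 other probe each. The first 30 of 60 bases are shown for the probes on which the largest differences rest, to make plain that Ndufaf6 and Sdhb were read at separate places. The Ndufaf6 probe used lies at chr4:10978306-10978365, a second at chr4:11000199-11000258 and another spans chr4:10997461-11000384. The Sdhb probes lie at chr4:140535052-140535108 and across chr4:140522514-140527081 (mm9, per the file headers). Spans above 60 bases cross at least 1 intron. Letters are in lower case because no base is singled out.
Ndufaf6, probe used: tagaggactacttaaagaaaatccagcgag
Ndufaf6, second probe: aagatggttgtagggtgtgcttggtactga
Ndufaf6, probe across the intron: agattatgaaagctacttgtgttccttact
Sdhb, probe used: tgtcaaacagctggagtctccctaagtaca
Sdhb, probe across introns: aatgcagacgtacgaggtggatctgaataa

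In AtmsKO, respiratory chain genes lay slightly above WT as a group. Over 90 genes detected on at least 1 of both arrays, the median log2 difference was 0.20 (interquartile range 0.03 to 0.32), and 70 were above 0 and 20 below. Among all bright genes the median was 0.02 and 53.9% were above 0, and among all genes the median was 0.01 and 51% were above 0. Among the 81 bright respiratory chain genes the median was 0.21, with 69 above 0. Differences of single genes were small. At a 2-fold threshold 1 gene rose and 0 fell, against 3.94% of all genes called higher and 4.09% called lower, and 0.634% and 0.616% of bright genes. At 1.5-fold, 3 genes were higher and 0 lower, where 4.06% of bright genes were higher and 3.25% lower.

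**Figure D1:**
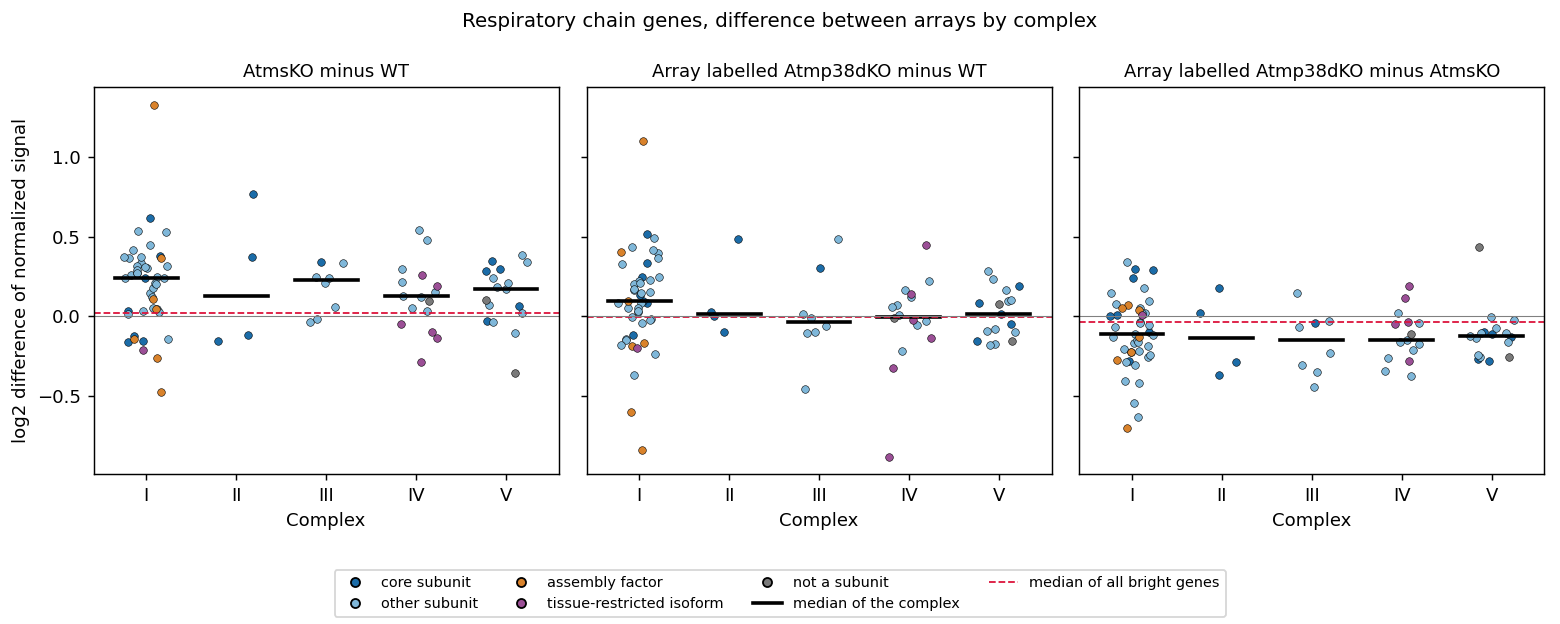
Log2 differences of normalized signal (vertical axis) for each respiratory chain gene detected on at least 1 of both arrays, by complex and coloured by role, in the 3 comparisons. Black bars are medians of a complex and dashed lines medians of all bright genes. In AtmsKO minus WT the 5 complex medians lay between 0.13 and 0.24, above the dashed line at 0.02.

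Complex I, which oxidizes NADH, had a median difference of 0.24 between AtmsKO and WT, with 37 of 45 genes above 0. The values are given by role. Of 30 genes counted by name as accessory subunits, which surround and stabilize the catalytic core, 29 were above 0 with a median of 0.27. The exception was Ndufb10 at -0.14. Ndufa4, since assigned to complex IV, is counted among the 30. Ndufs4, an accessory subunit at the electron-input end, gave 712 on WT, 976 on AtmsKO and 1104 on the array labelled Atmp38dKO, a log2 difference of 0.53 between AtmsKO and WT. Ndufb2, of the membrane arm, gave 254, 350 and 293, a difference of 0.54. Both were named after their values were seen, as the accessory subunits with the highest values in AtmsKO. Against WT, the array labelled Atmp38dKO gave 0.42 for Ndufs4 and -0.01 for Ndufb2. In AtmsKO against WT the other Ndufb2 probes differed in direction. They gave 0.38 (187 on WT and 231 on AtmsKO) and -0.76 (86.8 and 48.7), and the mean over the 3 Ndufb2 probes was 0.06.

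The 7 core subunits of complex I, which hold the flavin and the iron-sulfur clusters, had a median of 0.04 with 4 above 0. Ndufs7, which carries the last cluster before ubiquinone, gave 412 on WT, 599 on AtmsKO and 685 on the array labelled Atmp38dKO, the highest difference of a core subunit (0.62). Ndufs3 (0.38), Ndufv2 (0.24) and Ndufs8 (0.04) were also above 0 in log2 difference. Ndufs1, which holds several clusters, gave 396, 336 and 486 (-0.16), and Ndufv1, the NADH-binding subunit, gave 380, 323 and 485 (-0.16). After normalization both were lowest on AtmsKO at these probes. The other Ndufv1 probe gave 194, 182 and 226, a difference of only -0.02.

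The 7 complex I assembly factors, proteins that build the complex without staying in it, had the widest spread, from -0.47 to 1.33. Ndufaf6 gave 67.1 on WT, 160 on AtmsKO and 167 on the array labelled Atmp38dKO at the probe shown above, and was the gene that rose 2-fold, by 1.33 on the log2 scale. The WT array was the low one. The other probes of Ndufaf6 gave 53.1, 38.5 and 75.5, and 39.6, 12.7 and 60.5, where AtmsKO was the low array with differences of -0.38 and -1.57. All 3 probes were well above background on each array and their mean was -0.21. The rise of Ndufaf6 was thus seen at the probe used and not at the others, which are annotated to other transcripts. Signals were below the scaling percentile at the probe used on WT and at the others on each array. Ndufaf4 gave 68.0, 46.5 and 52.0 (-0.47), Ndufaf3 gave 28.8, 24.8 and 18.7 (-0.14), and Ndufaf1 gave 14.1, 11.2 and 14.4 (-0.26). These 3 act in assembly of the complex, and their probes were dim, below the signal of the scaling percentile, where a difference rests on few intensity units.

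In complex II, the succinate dehydrogenase that also serves the TCA cycle, the subunits differed in direction. Sdhb, the iron-sulfur subunit, gave 201 on WT, 325 on AtmsKO and 327 on the array labelled Atmp38dKO, a difference of 0.77 between AtmsKO and WT. Its other probe gave 255, 250 and 257, a difference of 0.05, so the larger value was seen at 1 of 2 probes. The membrane anchor Sdhd gave 670, 821 and 781 (0.37), the anchor Sdhc 1126, 961 and 1330 (-0.15) and the flavin subunit Sdha 569, 498 and 619 (-0.12). A second Sdha probe of the same transcript gave 157, 144 and 156 (-0.05), in the direction of the probe used. A dimmer probe gave 68.1, 94.7 and 69.2 (0.55). The average over these 3 Sdha probes, well above background on all arrays, was 0.13. Its direction, opposite to that of the probe used, was set by the dimmer probe.

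Complex III genes had a median difference of 0.23 in AtmsKO, with 6 of 8 above 0. The Rieske iron-sulfur protein Uqcrfs1 gave 711 on WT, 855 on AtmsKO and 1019 on the array labelled Atmp38dKO (0.34), and the matrix-facing core protein Uqcrc2 gave 1193, 1429 and 1941 (0.34). Its partner Uqcrc1 gave 215, 202 and 182 (-0.01). The core proteins thus parted on the array labelled Atmp38dKO, where Uqcrc2 was highest and Uqcrc1 lowest of the 3 arrays.

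Among the 9 widely expressed subunits of complex IV, which surround the mitochondrially encoded core, all 9 lay above 0 in AtmsKO, with a median of 0.16 and a range from 0.04 (Cox7a2) to 0.54 (Cox7b). Cox7b gave 1192 on WT, 1644 on AtmsKO and 1553 on the array labelled Atmp38dKO, and Cox6c, named after its value was seen, gave 756, 998 and 1022 (0.48). Both were lowest on WT. The isoforms known mainly from other tissues had a median of -0.07 over the 6 that were detected. Cox4i2, known from lung and low oxygen, gave 770, 682 and 814 (-0.10), and Cox6b2, known from testis, gave 2028, 2196 and 2598 (0.19). They were well above background in these cells, as were the muscle isoforms Cox6a2 (32.5, 29.9 and 30.1) and Cox7a1 (78.4, 88.8 and 124). Cox8c was not well above background on any array, Cox7b2 only on WT (7.88 units) and Cox8b on WT and the array labelled Atmp38dKO (7.10 and 8.12). On AtmsKO, Cox7b2 was at least 1.22-fold lower than on WT, a bound given by the dimmest probe that AtmsKO still registered above background.

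The used probes of isoform pairs were compared with each other in sequence. They were not compared with the transcript of the other isoform. Whether an isoform binds the probe of its relative was therefore not tested. The longest stretch shared by the used probes of a pair, on either strand, was 5 to 7 bases over 12 pairs, among them 7 for Cox4i1 and Cox4i2, 6 for Cox6b1 and Cox6b2 and 7 for Ndufa4 and Ndufa4l2. The first 30 bases of 4 of these probes are shown because Cox4i2 and Cox6b2 are isoforms not usually ascribed to blood cells.
Cox4i1: aagcgaatgctggacatgaaggccaacccc
Cox4i2: aagtgaccaacgtcccacgtctgccgccag
Cox6b1: aggagtcaggatggctgaagacatcaagac
Cox6b2: ggaactttcccgggcaaaatatgaccttgc

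**Figure D2:**
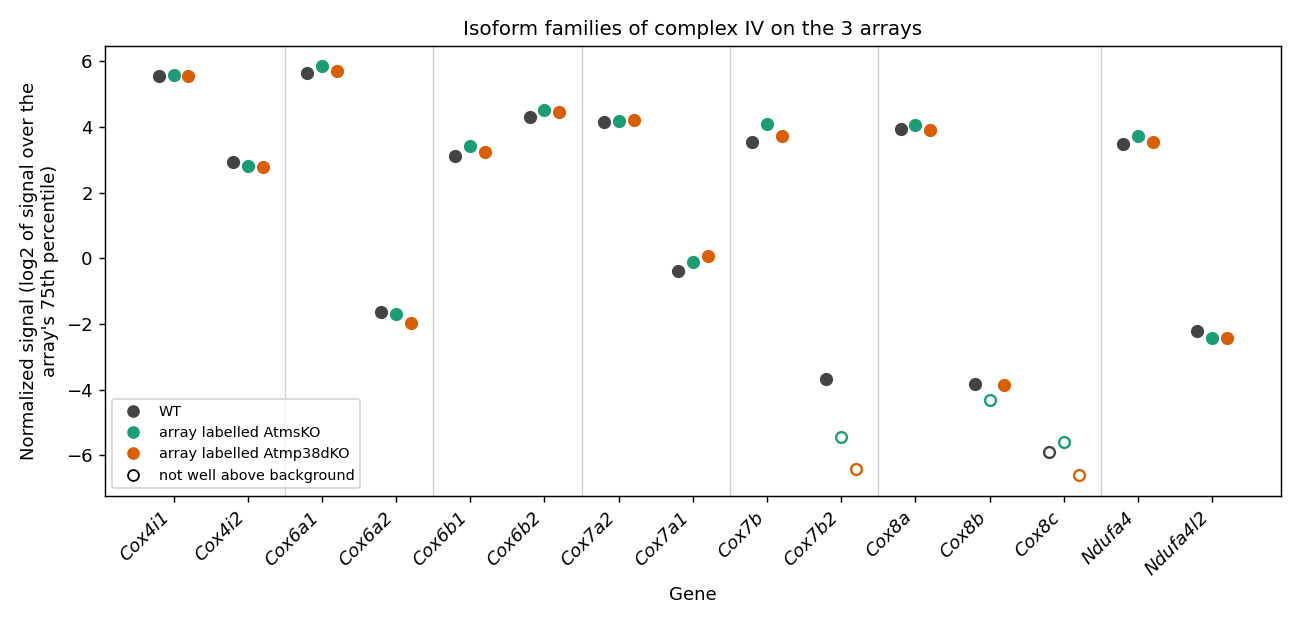
Normalized log2 signal (vertical axis) of isoform families on each array, with open circles for values not well above background, drawn at their measured signal. Only the 3 points of 1 gene may be set against each other, since probes differ in brightness. Cox4i2 and Cox6b2 were well above background on each array, Cox8c on none. Ndufa4 and Ndufa4l2 are shown here although their names place them in complex I.

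Ndufa4, named for complex I and since assigned to complex IV, gave 1130, 1272 and 1389 (0.25), whereas its paralogue Ndufa4l2, known as a gene induced by low oxygen, gave 21.6, 17.7 and 21.8 (-0.21). Cox7a2l, which joins complexes into supercomplexes and is no subunit of complex IV, gave 11148, 11284 and 12828 (0.09). Placing Ndufa4 and Ndufa4l2 in complex IV left the medians of both complexes within the spread of repeated spots.

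In ATP synthase, 13 of 17 genes were above 0 in AtmsKO with a median of 0.17. Of the F1 head subunits, the catalytic beta subunit Atp5b gave 3289, 3798 and 4354 (0.28), the gamma subunit Atp5c1 gave 954, 1112 and 1121 (0.30) and the epsilon subunit Atp5e gave 11682, 14108 and 14362 (0.35). All were lowest on WT. The alpha subunit Atp5a1 (0.06) and the delta subunit Atp5d (-0.03) were nearer to 0. The c-ring genes Atp5g1, Atp5g2 and Atp5g3 differed by 0.02, 0.07 and 0.19, the first and second of which were within the SD of the repeated Atp5g2 spots. Atp5s, a coupling factor that is no subunit, was dim and gave 22.3, 16.5 and 27.4 (-0.36).

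The offset of the group in AtmsKO was also seen within classes of signal and probe composition. Among genes with a mean normalized log2 signal from 0 to 2, 2 to 4 and 4 to 6, respiratory chain genes had medians of 0.24, 0.24 and 0.19, against 0.00, 0.03 and 0.05 for all genes of the same class. In the last class 18 of 18 were above 0. The 9 genes below a normalized signal of 0 had a median of -0.21 with 1 above 0. Among bright genes in the lowest, middle and highest class of probe GC content, respiratory chain genes had medians of 0.26, 0.21 and 0.16, against 0.03, 0.02 and 0.01. A partial check came from the other probes of these genes. Of 41 other probes of 32 respiratory chain genes, 27 (65.9%) differed from WT in the same direction as the used probe, compared with 54.1% among bright genes. Since 28 of the 41 and most used probes lay above 0, many would share a direction without agreement gene by gene. The median difference at these other probes was 0.10, lower than the 0.20 at the used probes. Between the array labelled Atmp38dKO and AtmsKO the shares were 56.1% and 55.4%.

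**Figure D3:**
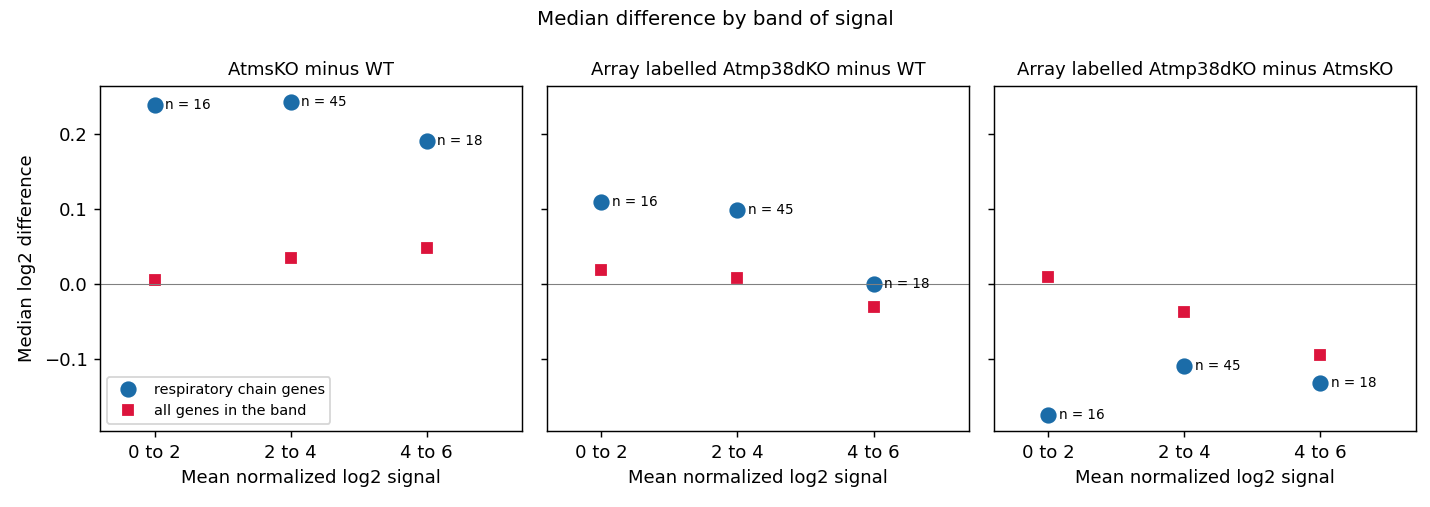
Median log2 difference (vertical axis) of respiratory chain genes (circles, with their number) and of all genes (squares) by class of mean normalized log2 signal, in the 3 comparisons. In AtmsKO minus WT the circles lie at 0.24, 0.24 and 0.19 and the squares at or below 0.05. Classes below 0 and above 6 are not drawn. Below 0, the 9 respiratory chain genes had a median of -0.21 in that comparison.

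The array labelled Atmp38dKO differed less from WT. The median over 90 respiratory chain genes was 0.05, with 53 above 0 and 37 below, whereas bright genes had a median of -0.01 with 49% above 0 and all genes 0.02 with 52.2% above 0. With normexp background correction the median was 0.12 with 64 above 0, and that of bright genes 0.04. At 2-fold 1 gene rose (Ndufaf6, by 1.104 on the log2 scale) and 0 fell, against 4.02% of all genes called higher and 4.49% lower, and 0.827% and 1% of bright genes. At 1.5-fold 1 gene was higher and 3 were lower, against 3.85% and 4.14% of bright genes. Medians by complex were 0.10 for complex I, 0.02 for II, -0.03 for III, -0.00 for IV and 0.02 for V, with complex IV at 0.09 after normexp background correction and 0.08 after quantile normalization. The highest genes after Ndufaf6 were Ndufs7 (0.52), the accessory subunit Ndufs5 (0.49) and Uqcrc2 (0.49), and the lowest were Ndufaf3 (-0.84), Ndufaf4 (-0.60), Uqcrc1 (-0.46) and Ndufb10 (-0.37). Ndufs5 gave 137, 174 and 225, highest on this array, and its other probe was not well above background on either knockout array. Ndufb10 gave 528, 453 and 474, highest on WT. Cox7b2 was at least 1.84-fold lower than on WT.

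Between the array labelled Atmp38dKO and AtmsKO, respiratory chain genes lay mostly below 0, with a median of -0.11 over 89 genes and 65 below, or -0.05 with quantile normalization and -0.036 with normexp. Bright genes had a median of -0.03 with 55.5% below 0, and all genes -0.00 with 50.5% below 0. In the signal classes from 0 to 2, 2 to 4 and 4 to 6, respiratory chain genes had medians of -0.18, -0.11 and -0.13. All genes of these classes had medians of 0.01, -0.04 and -0.10. In the class from 4 to 6, 31.1% of all genes were above 0. At 2-fold 0 genes rose and 0 fell, against 3.75% and 3.72% of all genes and 0.754% and 0.708% of bright genes. At 1.5-fold 0 were higher and 2 lower, namely Ndufaf3 (-0.70) and the membrane-arm subunit Ndufb4 (257, 333 and 263 on the 3 arrays, -0.63), where 3.38% and 3.91% of bright genes were called. In ATP synthase 16 of 17 genes were below 0 (median -0.12), the exception being Atp5s (0.44). In complex III 7 of 8 were below 0 and in complex IV 12 of 15. The core subunits of complex I had a median of 0.01 with 5 of 7 above 0. Among them were Ndufs8 (0.30) and Ndufv1 (0.29, or 0.02 at its other probe). Their accessory neighbours, counted as above, had a median of -0.14 with 22 of 30 below, although Ndufb6 stood at 0.34. This comparison shares the AtmsKO array with that against WT, so a gene high on AtmsKO enters both with opposite sign.

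Other mitochondrial genes were read from lists. The 11 subunits encoded in mitochondrial DNA, the partners of these proteins in complexes I, III, IV and V, had a median of -0.02 in AtmsKO against WT with 4 above 0. On the array labelled Atmp38dKO their median was -0.10 and 0 of 11 were above 0, but with quantile normalization it was 0.005 and 6 of 11 were above 0. Mitochondrial ribosome proteins had a median of 0.08 in AtmsKO (49 of 77 above 0, or 0.03 with quantile normalization), TCA cycle enzymes 0.09 (11 of 17, or -0.03 and 7 of 17 when the probes of a gene were averaged), genes of ubiquinone synthesis and electron carriers 0.07 (9 of 14), assembly factors under other names 0.06 (25 of 40), import and dynamics genes 0.11 (17 of 25, or 0.04 with probes averaged), and mitochondrial DNA expression and biogenesis genes -0.01 (11 of 22). The median of the respiratory chain genes (0.20) was above each of these. Cytoplasmic ribosomal protein genes, whose probes are bright, had a smaller median of 0.08 but 72 of 80 above 0, and on the array labelled Atmp38dKO the median was -0.12 with 16 of 80 above 0, or -0.02 and 30 of 80 with quantile normalization. Of these probes, 8 of the 11 mitochondrial and 60 of 83 ribosomal ones lay in the brightest class, above a mean normalized log2 signal of 6, where all 680 genes had a median of -0.10 on the array labelled Atmp38dKO against WT with 19.9% above 0. A high share above 0 on AtmsKO was thus not particular to the respiratory chain. Between the array labelled Atmp38dKO and AtmsKO, cytoplasmic ribosomal protein genes had a median of -0.19 with 79 of 80 below 0. With quantile normalization it was -0.06. Subunits encoded in mitochondrial DNA had -0.09 (10 of 11 below 0, or 0.04 with quantile normalization), and mitochondrial ribosome proteins -0.02 (41 of 77). Carrier and ubiquinone genes had 0.06 (6 of 14). Assembly factors under other names had -0.21 (24 of 40 below 0), but 0.007 with the probes of a gene averaged. TCA cycle enzymes had -0.10 (11 of 17), import and dynamics genes -0.05 (15 of 25) and mitochondrial DNA expression and biogenesis genes -0.06 (11 of 22). A high share below 0 was also not particular to the respiratory chain.

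**Figure D4:**
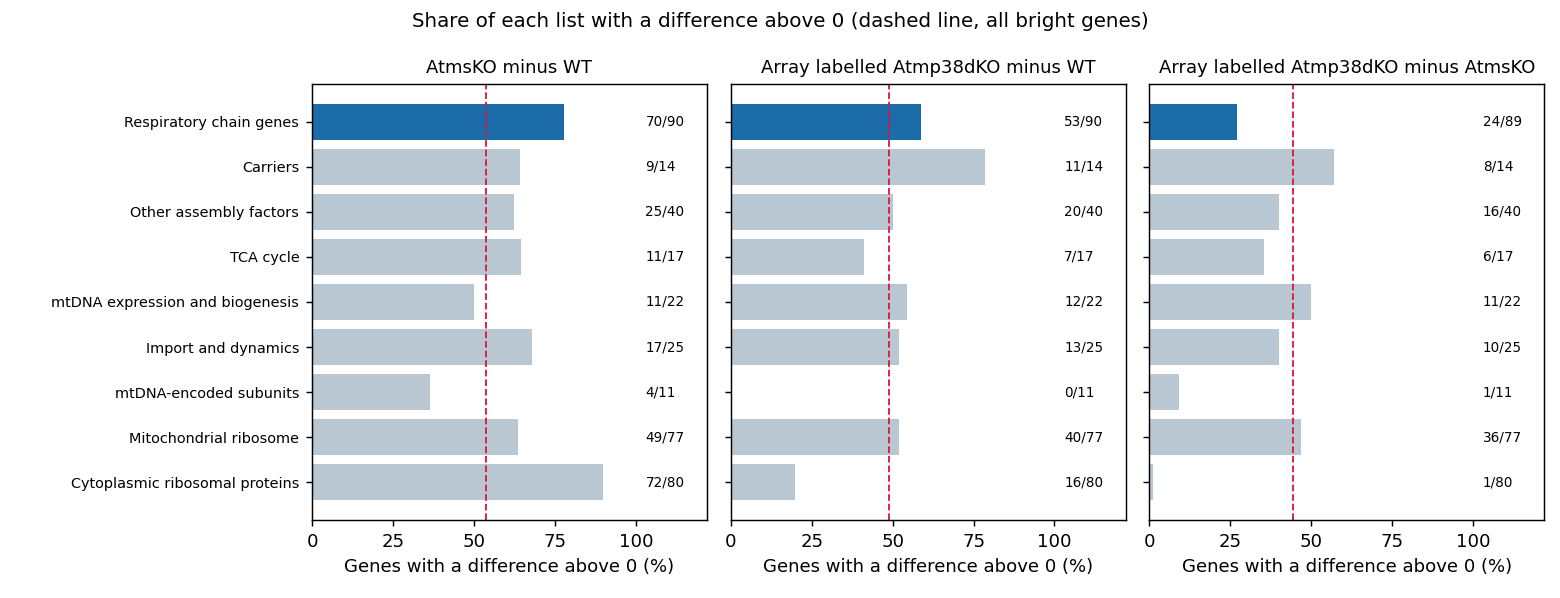
Share of genes with a log2 difference above 0 (horizontal axis, %) for respiratory chain genes (dark bars) and other lists, with counts at the right and the share of all bright genes as a dashed line. In AtmsKO minus WT, 70 of 90 respiratory chain genes and 72 of 80 cytoplasmic ribosomal protein genes were above 0.

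Among the regulators known to act on respiratory chain genes, Nrf1 gave 211 on WT, 190 on AtmsKO and 161 on the array labelled Atmp38dKO, highest on WT. Gabpa gave 285, 302 and 301, and Tfam, the packaging factor of mitochondrial DNA, gave 248, 223 and 310. The nuclear receptor Esrra rose by 1.05 on the log2 scale in AtmsKO, with 24.8 on WT, 48.7 on AtmsKO and 39.7 on the array labelled Atmp38dKO. It was dim, below the signal of the scaling percentile, where a difference rests on few intensity units. The coactivator Ppargc1a gave 11.52, 14.1 and 26.6, lowest on WT at signals near the dim end, and Ppargc1b gave 135, 132 and 142. Cytochrome c (Cycs) gave 387, 482 and 477, a difference of 0.39 in AtmsKO, and cytochrome c1 (Cyc1), a subunit of complex III outside the naming rule, gave 246, 233 and 307, a difference of 0.00.

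Promoters were scanned for sequence features. NRF1 and the ETS factor GABP are known activators of respiratory chain genes, so the NRF1 core GCGCATGCG and the ETS core CCGGAAG were searched on both strands of RefSeq promoters (GRCm38.p6), from 250 bases before to 50 after the start. Of the 91 genes, 72 had a promoter entry under their symbol. The NRF1 core was held by 10 of the 72 (13.9%), against 1.95% of all 27025 genes with a promoter and 4.38% of bright genes. The ETS core was held by 17 (23.6%), against 9.93% of all genes and 20.6% of bright genes. Atp5k, Atp5l, Cox6a1 and Uqcr11 held both. The median AtmsKO difference was 0.09 for the 10 genes with the NRF1 core, 0.24 for the 17 with the ETS core and 0.24 for the 49 with neither. A match describes letters in this window and not binding.
The 250 bases before the start are shown for the 2 genes with both cores in that stretch, with the cores in capitals. They lie at chr9:44920743-44920992 (Atp5l) and chr5:115348959-115349208 (Cox6a1), both on the minus strand. In Cox6a1 the NRF1 core is present on both strands in overlapping copies.
Atp5l: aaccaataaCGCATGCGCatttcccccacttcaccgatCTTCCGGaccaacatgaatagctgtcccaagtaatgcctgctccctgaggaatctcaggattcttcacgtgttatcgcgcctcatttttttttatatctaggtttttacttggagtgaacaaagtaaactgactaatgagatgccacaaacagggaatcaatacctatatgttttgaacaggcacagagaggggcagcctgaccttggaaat
Cox6a1: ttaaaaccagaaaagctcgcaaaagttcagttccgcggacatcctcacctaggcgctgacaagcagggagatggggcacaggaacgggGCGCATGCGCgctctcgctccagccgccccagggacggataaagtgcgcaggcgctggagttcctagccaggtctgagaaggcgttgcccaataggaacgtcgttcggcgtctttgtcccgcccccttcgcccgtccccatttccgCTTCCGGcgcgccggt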

How the data were processed

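Cy3-labelled LT-HSC RNA of WT, AtmsKO and Atmp38dKO mice was run on 1-colour Agilent arrays, 1 per genotype, which shared a slide and a scan. The deposited intensity values came from the contractor of the authors, per the labels from Agilent Feature Extraction 11.5.1.1, and the processed intensity is background-subtracted and detrended within an array. The authors also deposited log2 values of the same arrays, used here as an alternative.

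Control and outlier spots were left out, spots of a probe were averaged, and the log2 intensity was centered on each array's 75th percentile, so that only relative levels remain. Dimmer values were lifted to a floor, the lowest signal flagged well above background on that array. A gene entered a comparison if detected on at least 1 of both arrays and counted as changed at 2-fold. Bounds and unreplicated differences carry no p-value, since precision is limited by the array number. Gene names are those in the files. The genes, lists, roles and alternatives were chosen with earlier results of these data known. Genes named are Atm, Mapk14, fixed isoform families and core subunits, fixed regulators, and per comparison the 4 highest and 4 lowest members detected on both arrays and the extremes of other lists, and others are marked in the text. The result of 1 fixed name is not reported here. Lists covered LT-HSC, gate and blood cell markers, mitochondrial and ribosomal genes and uncoupling proteins. Functions were tested on simulated data. Python 3.11.15, numpy 2.4.6, pandas 2.3.3, matplotlib 3.10.9 and, for normexp with an offset of 50, R 4.3.3 with limma 3.58.1 were used. Alternatives changed the background correction, the scaling, the filter, the threshold, the probe rule, the summary and the set of genes.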

Additional observations from a re-analysis of the deposited data

Results flagged for a closer look

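A probe of Ndufb8, an accessory subunit of complex I, that was not used above gave 13.6 intensity units on WT, 6.67 on AtmsKO, where it was not well above background, and 38.7 on the array labelled Atmp38dKO. Its log2 difference between the array labelled Atmp38dKO and WT was 1.29, a signal above the control array in data outside the main measurement. The brighter Ndufb8 probe gave 235, 257 and 320, a difference of 0.23.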

How the results depend on the processing

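The number of arrays set the limits, since each genotype had 1. No paired analysis was possible because there was 1 array for each genotype, and no array could be left out for the same reason. The median of respiratory chain genes in AtmsKO against WT lay between 0.14 and 0.21 over its 10 alternatives. Its distance from the median of bright genes was a measure added after the main medians were seen. This distance moved by less than 0.0757 in 24 of 24 recomputations over the 3 comparisons. That limit was taken from the SD of repeated spots and not from the spread of a median over many genes. In AtmsKO against WT the distance was 0.179, and 0.110 with all probes of a gene averaged. Comparing WT with the array labelled Atmp38dKO gave only 0.058, less than the limit. Comparing that array with AtmsKO gave -0.080. The count of 24 therefore cannot show that distances this small are stable. Of 30 recomputed medians of all members, 29 moved by less than the limit of 0.0757. The median of the array labelled Atmp38dKO against AtmsKO moved by more, from -0.11 to -0.036 with normexp. The main median of 0.05 between WT and the array labelled Atmp38dKO was itself below that limit. Medians by complex moved by more than the limit in 7 of 51 recomputations.

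Counts at 2-fold rest on few genes. With normexp, with the mean over all probes of a gene or with the mean over its probes detected on all arrays, 0 genes were higher against WT in either comparison, and with the mean over all probes 1 was higher on the array labelled Atmp38dKO than on AtmsKO. At 1.5-fold 3 were higher in AtmsKO than in WT, and on the array labelled Atmp38dKO 3 were lower against WT and 2 against AtmsKO. With the authors' log2 values or without floor and filter 1 was lower in each comparison, and with quantile normalization 1 was lower in the array labelled Atmp38dKO against WT. The scanner's other detection flag left detection similar on the 3 arrays (91, 91 and 90 genes).

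Averaging all probes turned the direction of Ndufaf6 (-0.21) and Sdha (0.17) in AtmsKO against WT, of Atp5d (0.22), Atp5g3 (-0.30), Ndufa4l2 (0.17), Ndufs5 (-0.19) and Sdha (0.093) on the array labelled Atmp38dKO against WT, and of Ndufaf6 (0.81) and Ndufs5 (-0.26) on that array against AtmsKO. Normexp turned Atp5s (-0.093) on that array against WT and Cox8b (-0.13) against AtmsKO. Several of these averages hold a probe not well above background on 1 or more arrays, whose value is set by the floor. Averaging the probes well above background on all arrays, an alternative chosen after seeing the data, left as reversed Ndufaf6 (-0.21) and Sdha (0.13) in AtmsKO against WT, Atp5g3 (-0.30) on the array labelled Atmp38dKO against WT and Ndufaf6 (0.81) on it against AtmsKO. The positive Sdha average rested on 1 probe (0.55), whereas the other Sdha probes in that average were negative. The cause of the normexp reversals was not tested.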

Other observations

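The extremes of the other mitochondrial lists lay outside the respiratory chain. Sucla2, a subunit of the TCA cycle enzyme succinyl-CoA synthetase, gave 14.6 intensity units on WT, 92.8 on AtmsKO and 106 on the array labelled Atmp38dKO, and rose by 2.75 and 2.65 on the log2 scale. Dlat, the acetyltransferase of the pyruvate dehydrogenase complex, fell by 1.13 in AtmsKO, with 119, 51.4 and 96.02. On the array labelled Atmp38dKO, Sdhaf3, an assembly factor of complex II, fell by 1.17 against WT, with 19.5, 19.1 and 10.05, and Dlst, of the oxoglutarate dehydrogenase complex, gave 32.3, 31.1 and 92.7, higher by 1.29 than on AtmsKO. Of the 3 uncoupling protein genes, 2 were measured in AtmsKO against WT with a median of -0.01, and 3 on the array labelled Atmp38dKO with a median of -0.10. The left-out pseudogene name Atp5c1-ps gave 164, 178 and 212. Sucla2, Sdhaf3 and Dlst were dim, below the signal of the scaling percentile on each array. Each of the values in this paragraph comes from 1 array per genotype.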
